A study of Mus musculus with 6 samples.

Results

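Microvilli are the finger-like, actin-filled projections that cover the apical surface of the intestinal epithelium and together form the brush border. Their core is a bundle of parallel actin filaments held by bundling proteins, tied to the membrane by motors and linkers, and neighbouring microvilli are joined at their tips by protocadherins. The 10 genes described here encode parts of this structure: the actin bundlers villin (Vil1), espin (Espn) and plastin-1 (Pls1), the tip protein Eps8, the membrane motor Myo1a, the membrane linker ezrin (Ezr), and the tip-link complex of the protocadherins Cdhr2 and Cdhr5, the scaffold Ush1c and the motor Myo7b. They were selected by symbol from the 32285 genes listed, with earlier results of these libraries known, and all 10 were found, each once. The questions were whether the other 9 genes followed Vil1 across the epithelial lineages and whether they followed it in knockout mice. Because the level of Vil1 in these libraries set those questions, its own values are a description.

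Crypt epithelial cells of the mouse ileum, sorted on the surface marker EpCAM, were profiled by single-cell RNA sequencing in 6 libraries of 1 mouse each. Fpr2f/f mice (3 libraries, labelled WT) were homozygous for a floxed allele of Fpr2, a G protein-coupled receptor for formylated peptides, on the C57BL/6J background. Fpr2VKO mice (3 libraries) carried the same floxed alleles and, in addition, Cre recombinase driven by the Villin promoter, which is active in the intestinal epithelium. Mice were 8 to 12 weeks old and matched for sex and age, and the labels name no treatment. Villin is the product of Vil1, so the transgene uses the promoter of the gene that leads this set, and only the Fpr2VKO libraries carry it: presence of the transgene and loss of Fpr2 cannot be told apart in this design.

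The libraries held 90142126 to 189516114 unique molecular identifiers (UMIs, each standing for 1 captured transcript). After filters on UMIs (at least 1000), genes (at least 500), mitochondrial UMIs (at most 20%) and doublets, 16676 cells were left, and the mitochondrial limit alone had removed 65.7% to 90.1% of the barcodes that passed the filters on UMIs and genes, with the 2 largest losses (85.6% and 90.1%) in Fpr2VKO libraries. Median UMIs per cell differed by group without overlap, 3033 to 4612 in Fpr2f/f and 6358 to 6728.5 in Fpr2VKO libraries. Libraries shared 0 to 23 cell barcodes in the 15 pairs, where 1.79 to 5.68 would be shared if barcodes were drawn independently. Pairs among replicates 1 and 2 of both groups shared 8 to 23, where 2.54 to 5.54 would be shared. The 2 replicate 3 libraries shared 9, where 2.25 would be shared. All other pairs shared 0 to 4, and what lies behind this pattern was not tested. Fpr2 itself was listed at 0 in every barcode of every library, so the genotype labels could not be checked on it. There was an Fpr2 UMI in 0 of 9768 Fpr2f/f and 0 of 6602 Fpr2VKO epithelial cells. With cells taken as independent, this allows shares of up to 0.0307% and 0.0454%, but only if Fpr2 could be counted here. That was not tested, and the paper measured Fpr2 mRNA in ileal crypts by RT-qPCR. Cells were clustered without the 10 genes and without a wider list of 31 genes, and clusters were named from marker genes: stem-like (845 cells), transit-amplifying (TA)-like (2198), enterocyte-like (1050), Paneth-like (856), goblet-like (1739), enteroendocrine-like (572) and tuft-like (323). Every marker of the stem, TA, enterocyte, Paneth, goblet and tuft lists was highest in its own class, as were 8 of the 9 enteroendocrine markers. The other, Neurod1, was at 0 over all epithelial cells in both groups. The same lists had named the clusters, so these ranks are no separate check of the names. The stem-like cluster was led by Gkn3 and Olfm4 but also by genes of DNA replication such as Mcm4, Mcm6, Uhrf1 and Cdt1. A further 8787 epithelial cells in 9 clusters met no naming rule and are called unnamed, and 306 immune-like cells, which carry T cell, B cell and myeloid genes, were kept apart as a background for epithelial genes. Levels are in CPM, the UMIs of a gene in every 1000000 UMIs after summing over all cells of a class in 1 library, given as mean and SD over libraries.

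Vil1 lies on chr1:74409376-74435559 of GRCm38, plus strand, Espn on chr4:152120331-152152371, minus strand, and Myo1a on chr10:127705170-127720940, plus strand. The 250 bases before the RefSeq start of these 3 genes are shown, because Vil1 was the gene whose libraries separated by group, Myo1a resembled it across lineages but not between groups, and Espn resembled it least. Of the other genes, 6 lie on chr6:137477245-137654876 (Eps8), chr17:6738041-6782784 (Ezr), chr9:95752642-95845311 (Pls1), chr13:54701461-54736662 (Cdhr2), chr7:141269083-141276786 (Cdhr5) and chr7:46195350-46238503 (Ush1c), on the minus strand except Cdhr2. The sequences are from RefSeq (GRCm38.p6), 5′ to 3′ on the gene's strand, and capitals mark a match to 1 of 3 motifs.
Vil1, chr1:74409134-74409383: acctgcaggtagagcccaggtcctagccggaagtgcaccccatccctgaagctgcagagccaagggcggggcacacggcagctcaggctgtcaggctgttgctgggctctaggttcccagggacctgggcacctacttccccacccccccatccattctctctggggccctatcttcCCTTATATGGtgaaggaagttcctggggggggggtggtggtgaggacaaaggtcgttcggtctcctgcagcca
Espn, the third of 3 annotated starts, chr4:152128926-152129175: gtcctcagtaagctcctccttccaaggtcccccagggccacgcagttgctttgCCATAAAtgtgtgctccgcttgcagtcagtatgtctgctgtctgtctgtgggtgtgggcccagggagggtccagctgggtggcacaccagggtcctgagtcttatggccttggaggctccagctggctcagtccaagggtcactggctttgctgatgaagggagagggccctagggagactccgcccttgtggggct
Myo1a, chr10:127705006-127705255: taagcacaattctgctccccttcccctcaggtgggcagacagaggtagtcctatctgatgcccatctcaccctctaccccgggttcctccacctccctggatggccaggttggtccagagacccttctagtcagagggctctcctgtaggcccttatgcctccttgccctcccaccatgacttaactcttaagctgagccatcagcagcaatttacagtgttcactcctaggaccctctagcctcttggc
The motifs were the CArG box, which is bound by serum response factor, a regulator of actin cytoskeleton genes, the CDX motif TTTATNG and the HNF4 motif CAAAGTCC, both named for intestinal transcription factors; each was searched on both strands, and the CArG box was added after the Vil1 sequence had been read. Vil1 held 1 CArG box, which began 73 bases before the start and is found in 1.47% of 32851 promoters of this length. The first 2 Espn starts held none of the motifs, and the third held 1 CDX motif, in the reverse orientation, 197 bases before the start, against 9.81% of all promoters. The HNF4 motif, found in 1.20% of promoters, was in none of the promoters examined, and the Myo1a sequence and those of Cdhr2, Cdhr5, Ush1c, Pls1 and Ezr held none of the 3. A match is a description of letters only. Eps8 and Myo7b were not examined.

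Among the named classes, Vil1 was highest in enterocyte-like cells and lowest in Paneth-like cells. In descending order, its level in the 7 named classes was that of enterocyte-like (835.5 ± 141.9 CPM, SD, n = 6), tuft-like (549.9 ± 156.1), goblet-like (422.8 ± 90.4), enteroendocrine-like (416.8 ± 135.0), TA-like (247.1 ± 48.9), stem-like (209.6 ± 41.8) and Paneth-like (69.3 ± 17.2). The ranges over libraries overlapped between every pair of neighbours in this order except the last, stem-like and Paneth-like. The class effect was steady across libraries: within a library, the enterocyte-like level was 4.02 ± 0.33 times the stem-like level (SD, n = 6, range 3.63 to 4.44). The immune-like cells, which should lack villin, held 87.1 ± 111.4 CPM, between 10.1 and 80.3 in 5 libraries and 308.1 in Fpr2VKO replicate 3, where only 25 immune-like cells were recovered. Pooled over libraries, Paneth-like cells held 0.90 times the immune-like level, a ratio that rests on that library: the Fpr2f/f libraries held 56.4 ± 6.63 CPM in Paneth-like and 23.0 ± 12.9 in immune-like cells (SD, n = 3), the Fpr2VKO libraries 82.2 ± 14.2 and 151.2 ± 136.0. In CPM, Paneth-like cells were above immune-like cells in the 3 Fpr2f/f libraries and in 1 of the 3 Fpr2VKO libraries. Median depths were 25854 UMIs in Paneth-like and 5874.5 in immune-like cells. With cells thinned to the same depth of 2000 UMIs and shallower cells left out (15.9% of Fpr2f/f and 9.42% of Fpr2VKO cells, leaving 217 of 323 tuft-like and 1417 of 1739 goblet-like cells), a Vil1 UMI was found in 77.4 ± 2.02% of enterocyte-like cells, 62.0 ± 4.66% of tuft-like cells, 53.8 ± 8.15% of goblet-like cells, 30.4 ± 7.25% of stem-like cells, 17.5 ± 2.21% of Paneth-like cells and 5.85 ± 4.99% of immune-like cells (SD over 6 libraries, 5 for tuft). In these shares Paneth-like cells were above immune-like cells in 6 of 6 libraries. Before thinning, the enterocyte-like and immune-like shares were 99.3% and 19.4%. These levels are a description, since classes are clusters of the same cells.

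**Figure D1:**
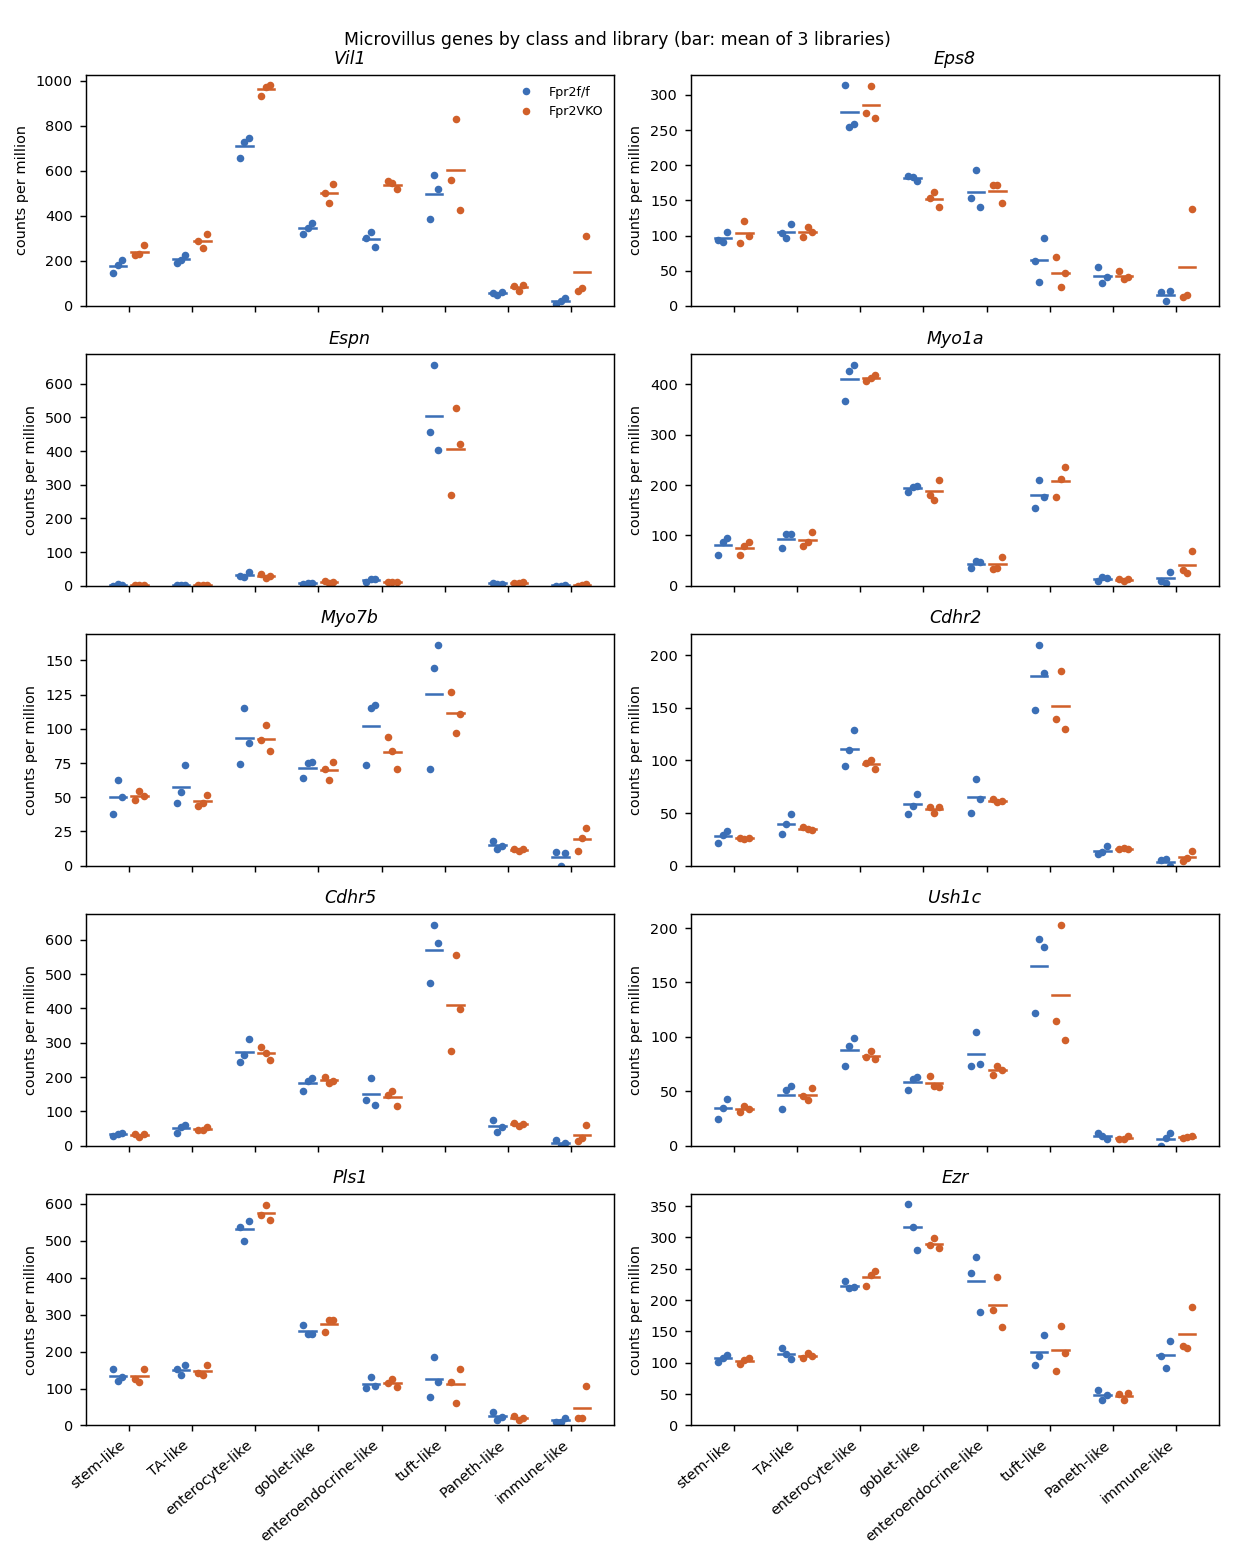
CPM (linear axes from 0) of the 10 genes in 7 named epithelial classes and in immune-like cells, with 1 point per library, colour for the group and a bar at the mean of 3 libraries. Espn stands almost alone in tuft-like cells, Cdhr2, Cdhr5, Ush1c and Myo7b have their highest mean of these classes there, and Eps8, Myo1a and Pls1 are highest in enterocyte-like cells; Vil1 is the gene in which the 2 groups separate in nearly every class.

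The other 2 bundlers of the core differed in the class that led them. Pls1 was led by enterocyte-like cells: it was 552.7 ± 32.5 CPM in enterocyte-like, 265.2 ± 18.3 in goblet-like, 149.8 ± 12.5 in TA-like and 133.8 ± 15.6 in stem-like cells, while tuft-like (119.1 ± 46.3) and enteroendocrine-like cells (114.2 ± 11.5) were no higher than stem-like cells. Espn was led by tuft-like cells, chemosensory cells named for their apical tuft of long microvilli. Its tuft-like level was 456.4, 654.2 and 402.5 CPM for Fpr2f/f mice and 270.9, 528.5 and 420.5 for Fpr2VKO mice. Every one of these values was above the highest enterocyte-like value of 39.7, and the tuft-like level was 16.0 ± 6.68 times the enterocyte-like level within a library (SD, n = 6). In stem-like and TA-like cells Espn rested on 54 and 95 UMIs in all, 2.19 ± 1.22 and 2.41 ± 0.921 CPM. Thinned to 2000 UMIs, 56.8% of tuft-like cells and 8.38% of enterocyte-like cells held an Espn UMI, against 0.29% of immune-like cells.

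The motor and linkers of the membrane differed by lineage as well. Myo1a was 411.6 ± 24.3 CPM in enterocyte-like cells, above tuft-like (194.0 ± 29.8) and goblet-like cells (190.7 ± 13.8), with no overlap between libraries. Enteroendocrine-like cells held 43.4 ± 9.66 CPM of Myo1a, below stem-like cells (78.2 ± 14.5) without overlap, although their Vil1 level lay above that of stem-like cells. In Paneth-like cells, Myo1a was 0.49 times the pooled immune-like level, with a UMI in 4.43 ± 1.99% of thinned Paneth-like and 3.74 ± 3.38% of immune-like cells. These 2 shares were 5.91% and 1.31% in Fpr2f/f but 2.94% and 6.17% in Fpr2VKO. A Paneth-like level of Myo1a above background was therefore not settled. Ezr was the flattest of the 10, with a highest mean 6.34 times its lowest, and the only one led by goblet-like cells, at 303.3 ± 27.9 CPM against 230.0 ± 11.4 in enterocyte-like cells, without overlap. Immune-like cells held 129.4 ± 32.6 CPM of Ezr; leukocytes are known to use ezrin, so these cells give no background for it. Eps8, which caps actin filaments at the microvillus tip, was 280.2 ± 26.7 CPM in enterocyte-like cells and 56.3 ± 25.9 in tuft-like cells, 0.20 ± 0.10 times the enterocyte-like level within a library.

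The 4 genes of the tip-link complex shared their leading class. Among the 7 named classes, each had its highest mean in tuft-like cells: 489.4 ± 136.1 CPM for Cdhr5, 165.6 ± 31.2 for Cdhr2, 151.6 ± 45.2 for Ush1c and 118.6 ± 32.8 for Myo7b. Enterocyte-like cells came next, with 270.7 ± 25.2, 103.7 ± 13.8, 85.2 ± 9.10 and 92.9 ± 14.5 CPM. The 2 classes did not overlap for Cdhr2, which was higher in tuft-like cells in 6 of 6 libraries, by 1.60 ± 0.23 times. They overlapped for the other 3, which were higher in tuft-like cells in 6 (Ush1c), 5 (Cdhr5) and 4 (Myo7b) of 6 libraries. Enteroendocrine-like cells were level with enterocyte-like cells for Myo7b (92.4 ± 20.2 CPM) and overlapped them for Ush1c (76.8 ± 14.0). Each of these was higher in enteroendocrine-like cells in 2 of 6 libraries. The enterocyte-like level was 8.39 ± 1.08 times the stem-like level for the protocadherin Cdhr5 and 3.87 ± 0.33 times for Cdhr2, but 2.54 ± 0.25 times for the scaffold Ush1c and 1.84 ± 0.11 times for the motor Myo7b (SD, n = 6). In Paneth-like cells Ush1c and Myo7b were 1.00 and 1.02 times the pooled immune-like level, and Cdhr2 and Cdhr5 2.72 and 3.29 times, on 17, 28, 13 and 39 immune-like UMIs. For Myo7b the groups differed: Paneth-like and immune-like means were 15.0 and 6.37 CPM in Fpr2f/f, and 11.7 and 19.5 in Fpr2VKO. Tuft-like cells were shallow, with a median of 2436 UMIs, and their values rest on 67 (Eps8) to 632 (Vil1) UMIs in all.

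A small cluster of enterocyte-like cells held far more of these transcripts than the rest. Enterocyte-like cells fell into 3 clusters: a cluster of 587 cells led by Fabp1, Lct and Slc2a2, a cluster of 411 cells led by the ileal bile acid gene Fabp6, and a cluster of 52 cells led by Clca4a, Ada, Enpp7 and Apoa4, genes of the upper villus. Pooled over libraries, Vil1 was 946.8, 657.5 and 2422.7 CPM in these clusters, the last with an exact Poisson 95% interval of 2291.3 to 2559.7. Pls1 was 604.3, 386.3 and 2993.1 CPM, and Cdhr5 277.7, 224.8 and 1339.2. Espn, low in the first 2 clusters (25.2 and 19.2 CPM), was 478.8 CPM (interval 421.4 to 541.9, 251 UMIs) in the third. Ush1c was near level over the 3 clusters, at 85.8, 87.3 and 91.6 CPM (interval of the last 67.5 to 121.4, 48 UMIs). Of the 25 clusters, the 52-cell cluster had the highest pooled level of 9 of the 10 genes, Ush1c being the exception. For Espn its interval overlapped that of the tuft-like cluster (454.0 CPM, 416.4 to 494.2). Unnamed clusters also reached high levels. In a cluster led by Prickle2, Slc10a2 and Fabp6, and in one led by Pfkfb3 and Celf2, Vil1 was 1131.8 and 1114.5 CPM (means over 6 libraries), above the enterocyte-like mean, and Myo7b was 229.0 and 204.8 CPM, above its tuft-like mean. The first of these also exceeded the enterocyte-like mean for Eps8 (463.6 CPM) and Myo1a (478.1 CPM). In the 52-cell cluster only 1 library (Fpr2f/f replicate 3, 22 cells) passed 20 cells, and the intervals cover counting error only.

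Likeness to Vil1 was measured as Pearson's r of log2(CPM + 1) over 42 sums (7 named classes in 6 libraries), among 6317 genes with a mean of at least 20 CPM. The sums share libraries, depth and the Vil1 values themselves, so r is a description. The members ranked Ush1c (r = 0.89), Myo7b (0.88), Cdhr2 (0.87), Myo1a (0.85), Pls1 (0.82), Ezr (0.78), Cdhr5 (0.71), Eps8 (0.61) and Espn (0.49). Only 0.712% of the genes were at least as like Vil1 as Ush1c and 1.16% as Myo7b, against 40.8% for Eps8 and 63.1% for Espn, each share counting the gene itself. The gene most like Vil1 of all came from the wider list: Slc9a3r1, the ezrin-binding scaffold known as NHERF1 or EBP50, with r = 0.95. Calml4, a light chain of the tip-link complex, had r = 0.90. Outside both lists the 5 most similar genes were Arhgap18, Sema4a, Svip, Zdhhc9 and Zmiz1, each with r = 0.93.

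In Fpr2VKO mice, Vil1 was higher in 7 of 8 epithelial classes with no overlap between libraries, and none of the other 9 genes showed this pattern. The 7 include the Paneth-like class, the lowest in Vil1, and the background differed in the same direction: immune-like cells held 23.0 ± 12.9 against 151.2 ± 136.0 CPM of Vil1 and a thinned share of 2.05 ± 1.97% against 9.65 ± 3.88% (SD, n = 3), both without overlap. These immune-like levels rest on 175 Vil1 UMIs in all. The closest libraries held shares of 3.92% of 51 cells (Fpr2f/f) and 5.17% of 58 cells (Fpr2VKO). The share of all genes without overlap in immune-like cells was not computed. Over all epithelial cells the 3 Fpr2f/f libraries held 302.0, 312.4 and 357.9 CPM of Vil1, against 443.1, 405.7 and 450.8 for Fpr2VKO. The lowest Fpr2VKO library was thus above the highest Fpr2f/f library. In enterocyte-like cells Vil1 was 655.3, 728.9 and 745.0 against 933.6, 971.5 and 978.5 CPM, and in stem-like cells 147.5, 182.3 and 205.2 against 225.7, 228.2 and 268.7. Relative to the Fpr2f/f level, the widest gap was in enteroendocrine-like cells, with 299.9, 326.3 and 260.4 against 553.6, 543.5 and 517.3 CPM. The exception was the tuft-like class, with 385.7, 582.0 and 520.6 against 558.3, 828.0 and 425.1 CPM, where the groups overlapped. Of 2929 genes measured in all 8 classes, 2 (0.0683%) were higher without overlap in at least 7 of 8 classes: Vil1 and Mt1, a metallothionein, which was chosen after its values were seen. The limit of 7 was set at the count of Vil1, and the classes come from the same 6 libraries.

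**Figure D2:**
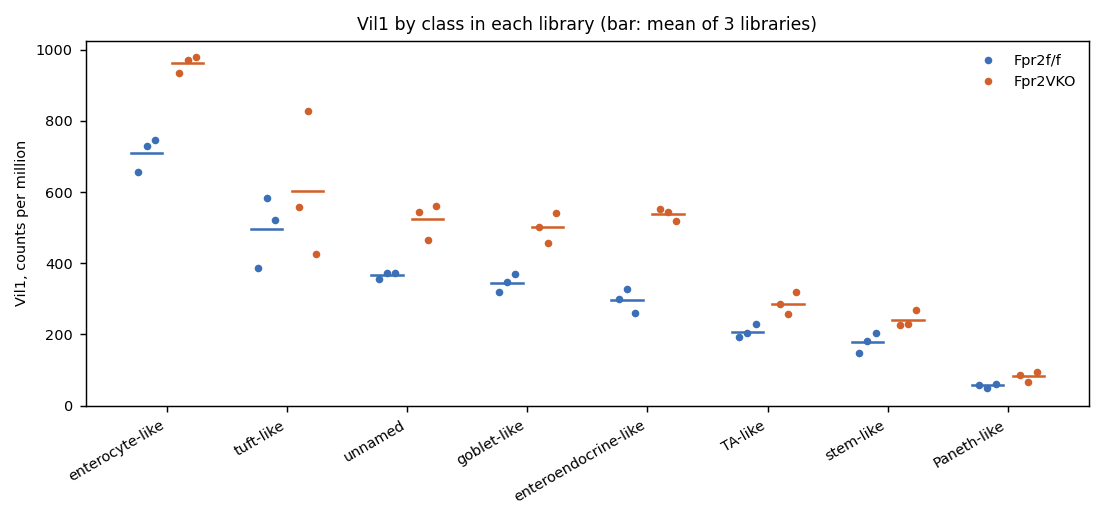
Vil1 CPM (linear axis from 0) in 8 epithelial classes, with 1 point per library, colour for the group and a bar at the mean of 3 libraries. The 3 Fpr2VKO points lie above the 3 Fpr2f/f points in every class but the tuft-like, where they span 425.1 to 828.0 CPM against 385.7 to 582.0.

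In edgeR quasi-likelihood fits across all genes, the estimated difference of Vil1 (log2 of Fpr2VKO over Fpr2f/f) was 0.46 (SE 0.12) over all epithelial cells, from 0.43 (enterocyte-like) to 0.49 (TA-like and goblet-like) in 6 classes, 0.88 (SE 0.16) in enteroendocrine-like and 0.15 (SE 0.29) in tuft-like cells. After Benjamini-Hochberg adjustment over all genes tested it did not pass 0.05 in any of them: the adjusted p was 0.291 over all epithelial cells and ran from 0.0801 (goblet-like) and 0.123 (enteroendocrine-like) to 0.937 (tuft-like). DESeq2, run as an alternative, called Vil1 over all epithelial cells (adjusted p = 0.0232) and in enterocyte-like (0.049), goblet-like (0.0108) and enteroendocrine-like cells (0.00417). Within edgeR, fits without the filter on low counts called it in stem-like (adjusted p = 0.0487), goblet-like (0.023) and enteroendocrine-like cells (0.00299), and clustering at resolution 2 in goblet-like cells (0.0469). The call therefore depended on the tool and on the settings of the fit. The estimate over all epithelial cells was 0.45 to 0.53 over 13 other settings and 0.39 to 0.54 with each library left out, and that in enterocyte-like cells 0.29 to 0.50 and 0.39 to 0.45. The test of the genotype effect in enterocyte-like against stem-like cells gave a log2 difference of 0.02 (SE 0.10) for Vil1, adjusted p = 0.991, in a comparison where 0.00854% of genes tested were called and 0 of the 10 members.

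Classes can differ between groups in their makeup, so Vil1 was also read within single clusters. The Fabp1-led cluster held 66.3% of enterocyte-like cells in Fpr2VKO and 43.1% in Fpr2f/f, and the Fabp6-led cluster 30.4% and 49.9%. Fpr2f/f libraries varied, with 75, 69 and 59 cells in the Fabp1-led against 40, 79 and 116 in the Fabp6-led cluster. Within the Fabp1-led cluster Vil1 was 787.4 ± 119.5 CPM in floxed controls against 1023.2 ± 68.7 in knockouts (SD, n = 3), and within the Fabp6-led cluster 593.2 ± 21.8 against 748.7 ± 38.2, again without overlap. In all 19 epithelial clusters with at least 20 cells in every library the mean of Vil1 was higher in Fpr2VKO, by 1.17 to 2.37 times, and in 17 of them the libraries did not overlap. The same or a higher count was found for 0.0683% of genes, again Vil1 and Mt1. The ratio was largest, 2.29 to 2.37, in 3 shallow unnamed clusters with medians of 3025 to 4607 UMIs per cell, 1 led by Gm26917 and Peak1 and the others with histone genes among the leading genes. It was 1.26 to 1.35 in 5 clusters of stem-like, TA-like, enterocyte-like and Gsdmc4-led cells with medians of 26352 to 38408 UMIs, 1.51 in the deepest cluster (Paneth-like, 52639 UMIs) and 1.17 in another shallow unnamed cluster (2586.5 UMIs). The other 9 genes had a higher mean in Fpr2VKO in 3 (Cdhr2) to 12 (Espn) of the 19 clusters, and each was without overlap in at most 1 cluster. The share of all genes with such counts was not computed, so these counts are a description.

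**Figure D3:**
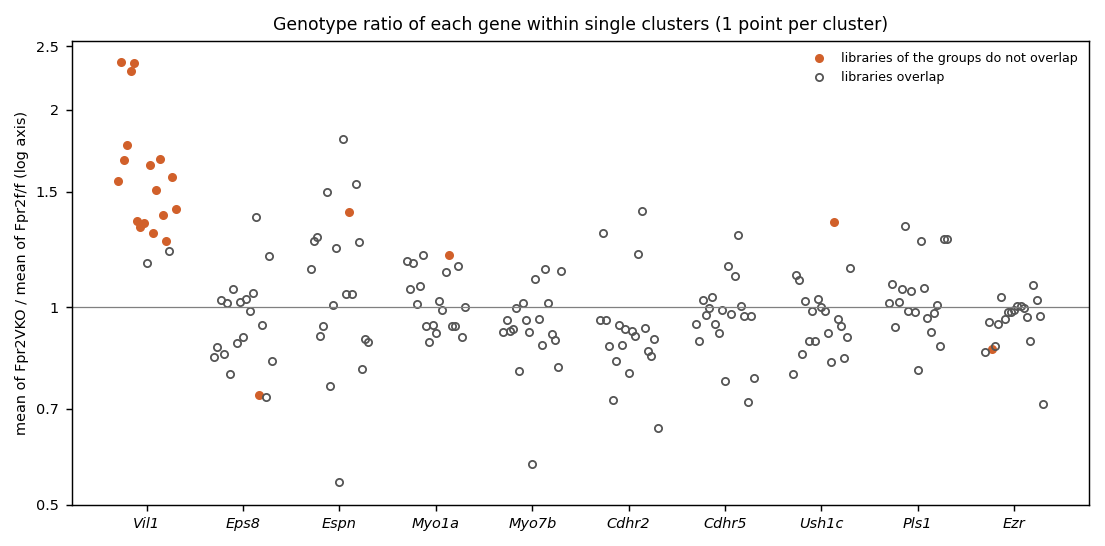
Mean of the 3 Fpr2VKO libraries divided by the mean of the 3 Fpr2f/f libraries (log axis) for each gene, with 1 point per epithelial cluster (19 clusters) and filled points where the libraries of the groups do not overlap. All points of Vil1 lie above 1, up to 2.37, while those of the other 9 genes scatter around 1.

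Depth per cell was greater in Fpr2VKO libraries. With cells thinned to 2000 UMIs, the share of cells with a Vil1 UMI was 25.5 ± 7.73% in Fpr2f/f against 35.3 ± 0.44% in Fpr2VKO for stem-like, 34.6 ± 3.65% against 48.0 ± 5.72% for TA-like and 41.0 ± 5.16% against 57.7 ± 4.16% for enteroendocrine-like cells, each without overlap (SD, n = 3), while enterocyte-like (76.6 ± 2.49% against 78.2 ± 1.49%) and goblet-like cells (48.4 ± 4.27% against 59.3 ± 7.66%) overlapped. Reads outside the cells showed the same direction for Vil1. In barcodes under 100 UMIs, which hold free RNA, Vil1 was 255.4 ± 27.1 CPM for Fpr2f/f against 350.2 ± 25.7 for Fpr2VKO, without overlap (SD, n = 3). These barcodes held 7.25% to 13.1% of all UMIs of a library. With 10% of each summed profile taken as free RNA and subtracted, the log2 estimate for Vil1 was 0.45 in the whole epithelium, 0.42 in enterocyte-like and 0.43 in stem-like cells. In barcodes left out for mitochondrial UMIs, which come from the same libraries, Vil1 was 388.1 ± 40.6 against 579.0 ± 53.2 CPM at 20 to 40% mitochondrial UMIs and 361.3 ± 77.9 against 598.2 ± 95.8 above 40%, without overlap in either. In the barcodes at 20 to 40%, Eps8, Myo7b and Ush1c were lower in Fpr2VKO libraries without overlap, and above 40% each of them overlapped. The share of all genes without overlap in these barcodes was not computed. Vil1 shares 49 exon bases with Usp37 on the opposite strand, and Usp37 was 32.5 ± 2.42 and 32.3 ± 1.56 CPM in the 2 groups. The summed level of the stem marker list over all epithelial cells was 949.5 to 1326.1 CPM for Fpr2f/f against 2185.3 to 2312.5 for Fpr2VKO, without overlap. Its part in the Vil1 value over all epithelial cells was not tested. Within enterocyte-like cells the immune list summed to 4.38 to 8.33 CPM against 5.77 to 12.3, and none of its 9 markers was at 0 over all epithelial cells.

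With the settings used throughout, the edgeR test called none of the 10 genes in any genotype comparison. The count was 0 of 10 over all epithelial cells, where 0.0363% of 16517 genes tested were called. It was 0 of 9 tested in stem-like cells (0.0742% of genes called; Espn was not tested there) and 0 of 10 in TA-like (0.109%), enterocyte-like (0.028%), Paneth-like (0.271%), goblet-like (0.0887%), enteroendocrine-like (0.0203%), tuft-like (0.0659%) and unnamed cells (0.0153%). At an unadjusted p under 0.05, Vil1 was higher in all of these but the tuft-like class; of the others, Myo1a was lower in Paneth-like, Eps8 in goblet-like, Cdhr5 in tuft-like and Eps8 and Cdhr2 in unnamed cells, and none was higher. Over all genes tested, 694 of 8856 in Paneth-like, 755 of 10147 in goblet-like, 187 of 3036 in tuft-like and 872 of 13077 in unnamed cells had an unadjusted p under 0.05. Within the deeper Paneth-like cluster Myo1a was not lower, at 9.46 ± 3.70 CPM in Fpr2f/f against 10.7 ± 1.27 in Fpr2VKO (SD, n = 3). This cluster made up 54.0% of the class in Fpr2f/f and 77.1% in Fpr2VKO. The other Paneth-like cluster, with 15 cells in Fpr2VKO replicate 2, was not compared. The unnamed class differed in makeup as well: its Pfkfb3-led cluster made up 27.5% of it in Fpr2f/f and 15.3% in Fpr2VKO. Eps8 and Cdhr2 overlapped in every unnamed cluster that was compared. The part of class makeup was not tested. DESeq2 called Vil1 in the 4 comparisons given above and none of the other 9 genes.

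**Figure D4:**
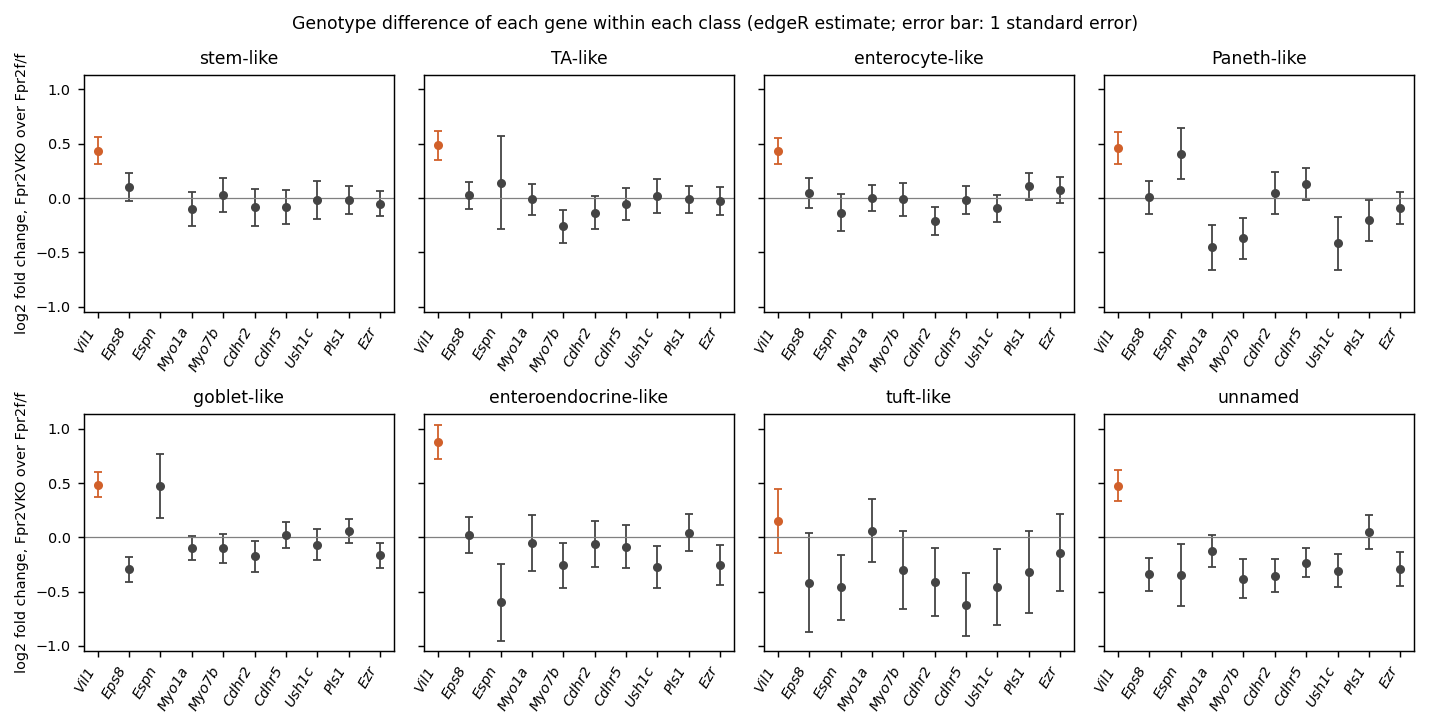
The log2 fold change, Fpr2VKO over Fpr2f/f, of each gene in 8 epithelial classes as edgeR estimated it, with error bars of 1 standard error, derived from the test statistic. Vil1 is above 0 by more than 2 standard errors in 7 classes, while the other genes lie on both sides of 0 with errors that are widest in tuft-like cells and for Espn; Espn is missing where it was too low to test.

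Set beside Vil1, the bundler Pls1 had a log2 estimate of 0.12 in the whole epithelium and was 531.0 ± 27.8 against 574.5 ± 20.9 CPM in enterocyte-like cells. Its 3 Fpr2VKO libraries there (571.0, 597.0 and 555.7) lay just above the Fpr2f/f libraries (537.5, 500.4 and 554.9). In CPM this was the only case of a member besides Vil1 that was higher without overlap in an epithelial class. Within the Fabp1-led and Fabp6-led clusters Pls1 overlapped, at 1.07 and 1.01 times, and its estimate in enterocyte-like cells was -0.062 at a mitochondrial limit of 40% and -0.044 with the members among the variable genes. Over all epithelial cells it was -0.022 at a limit of 10%. The estimates of the remaining 8 genes over all epithelial cells were below 0, from -0.05 (Eps8) to -0.23 (Myo7b), with adjusted p between 0.634 and 0.909. These directions were not stable: at a mitochondrial limit of 10% the estimates were 0.34 for Espn, 0.30 for Cdhr5, 0.066 for Ezr and 0.0078 for Cdhr2, and without Fpr2f/f replicate 3 they were above 0 for Eps8, Espn, Myo1a and Cdhr5 (0.019 to 0.072), as was Myo1a without Fpr2VKO replicate 1. Ezr was 167.5, 168.4 and 155.2 CPM against 146.0, 146.8 and 140.1, with Fpr2VKO lower without overlap (log2 estimate -0.13). Eps8 was likewise lower in goblet-like cells, with 184.7, 183.0 and 177.4 against 153.6, 162.4 and 140.4 CPM (log2 fold change -0.30, adjusted p = 0.517). In tuft-like cells, where the tip-link genes were highest, Cdhr5 was 475.6, 642.8 and 590.4 against 275.1, 554.9 and 397.4 CPM, and the groups overlapped. Over the 8 classes and 9 genes there were 71 tested pairs, of which 1 was higher and 3 were lower without overlap (Eps8 in goblet-like, Myo7b in Paneth-like and Ezr in unnamed cells), while 10.8% of all pairs of gene and class did not overlap in either direction. Within single clusters, Eps8 was lower without overlap in the deepest goblet-like cluster (206.4 ± 9.98 against 151.4 ± 6.63 CPM), which made up 21.7% of the class in Fpr2f/f and 33.7% in Fpr2VKO, and overlapped in the other 2, at 1.03 and 1.37 times, whereas Myo7b overlapped in the deeper Paneth-like cluster and Ezr in each of the 8 unnamed clusters with enough cells. The median of the log2 estimates of those of the 9 genes that were tested was -0.13 over all epithelial cells, -0.01 in enterocyte-like, -0.04 in stem-like, -0.31 in unnamed and -0.41 in tuft-like cells, while the median of all genes tested lay between -0.0036 and 0.00697 in the same comparisons. The unnamed class differed in makeup between the groups, as given above. A list chosen with results known gives no test of its own.

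The wider list of 31 genes gave the same count. It holds further tip-link partners, tip and actin regulators, linkers and scaffolds, myosins, terminal web proteins and actins, and also the transcription factors Hnf4a, Hnf4g, Cdx1, Cdx2 and Srf, which are no part of the microvillus. None passed 0.05 after adjustment in any of the 9 genotype comparisons, with 20 (tuft-like) to 30 (all epithelial cells) of them tested. Over all epithelial cells 7 were estimated higher and 23 lower in Fpr2VKO, with 2 lower and 0 higher at an unadjusted p under 0.05 (1542 of 16517 genes in all), and a median log2 fold change of -0.09. In enterocyte-like cells 9 were estimated higher and 19 lower, and in stem-like cells 16 and 11. Calml4, named after its values were seen, came closest to the pattern of Vil1: it was estimated higher in 7 of 8 classes and was higher without overlap in 3, with 190.0 ± 2.36 against 210.5 ± 8.20 CPM in TA-like, 424.7 ± 18.5 against 466.8 ± 22.0 in enterocyte-like and 199.5 ± 34.5 against 240.6 ± 15.5 in unnamed cells (SD, n = 3). Its log2 estimate was 0.22 over all epithelial cells (SE 0.11, edgeR adjusted p = 0.544). In none of the 8 classes was its unadjusted p under 0.05. The share of all genes higher without overlap in at least 3 classes was not computed. Slc9a3r1, the gene nearest to Vil1 across lineages, was estimated higher in 6 of 8 classes and higher without overlap in 1, and its only unadjusted p under 0.05 came with a lower estimate, in unnamed cells. Neither these genes nor the 9 other members were called by DESeq2 or under any of the other settings.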

How the data were processed

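Libraries were made by the authors from sorted EpCAM+ ileal crypt cells on the MobiNova-100 platform and aligned to mm10 with MobiVision; the annotation version and the strand setting of the counting are not given in the sources used here. The deposited matrices hold raw counts of UMIs per gene and barcode, with no normalization by the authors. Barcodes were filtered as stated, doublets were removed by score, libraries were aligned by mutual nearest neighbours on 30 principal components and clustered with leidenalg 0.10.2 at resolution 1, and clusters were named from marker lists. UMIs were summed per library and class (at least 20 cells). Groups (3 libraries each, the unit of replication) were compared with edgeR 4.0.16 (TMM, filterByExpr, quasi-likelihood test, robust; R 4.3.3), with Benjamini-Hochberg adjustment over all genes tested and a threshold of 0.05. The SE of an edgeR estimate was derived as its absolute log2 fold change divided by the square root of the F statistic of the test. The test was also run on simulated counts for all epithelial cells, with a result that is not given here. DESeq2 1.42.0, other normalization, filters, clusterings, the replicate block and each library left out were alternatives. Gene positions came from GENCODE M21. All 10 members, the 31 other genes and the 5 genes most like Vil1 were named by rule; members and lists were chosen with earlier results of these data known. Intervals cover counting error only.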

Additional observations from a re-analysis of the deposited data

How the results depend on the processing

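The edgeR test called 0 members over all epithelial cells and in each class (79 tests of a member in a class). DESeq2 called 1 over all epithelial cells, and in the classes 3 were called by DESeq2, 3 without a filter, 4 with the replicate block and 1 at resolution 2, every one of them Vil1; leaving out a library gave 0 to 0. Replicate numbers gave no steady pairing of the libraries: deviations of libraries with the same number correlated at -0.060, -0.040 and 0.284. The last, for replicate 3, was above all correlations of different numbers between the groups (-0.169 to 0.187). In edgeR with the block, Vil1 was called in stem-like (adjusted p = 0.0224), TA-like (0.0168), enterocyte-like (0.0314) and enteroendocrine-like cells (0.0323). Over all epithelial cells the number of genes called went from 6 to 115 with DESeq2, 58 with the block, 267 without a filter, 122 at a mitochondrial limit of 10% and 95 without Fpr2f/f replicate 1. The enterocyte-like over stem-like ratio of Vil1 (4.02) was 3.35 with doublets kept, 3.25 without alignment, 3.27 at resolution 0.5, 4.38 with the members among the variable genes, 4.54 with free RNA subtracted, 4.99 with cells thinned, and 3.93 to 4.09 with a library left out. Estimates that changed sign were called in no setting. For Vil1 they were in tuft-like cells -0.18 at 2000 UMIs and -0.18 to 0.41 with a library left out, and for the enterocyte-like minus stem-like difference -0.24 at a limit of 40%, -0.057 at 2000 UMIs, -0.043 without alignment, -0.052 at resolution 0.5, -0.23 with members among the variable genes and -0.064 to 0.11 with a library left out. Over all epithelial cells, the limit of 10% gave 0.34 for Espn, 0.0078 for Cdhr2, 0.30 for Cdhr5, -0.022 for Pls1 and 0.066 for Ezr, and leaving out a library gave -0.12 to 0.019 for Eps8, -0.29 to 0.024 for Espn, -0.19 to 0.072 for Myo1a and -0.19 to 0.053 for Cdhr5, above 0 without Fpr2f/f replicate 3 and, for Myo1a, also without Fpr2VKO replicate 1. Pls1 in enterocyte-like cells was -0.062 at 40% and -0.044 with members among the variable genes. The causes were not tested. The limit of 10% left no stem-like or tuft-like class and so no value there. Tuft-like values rest on few UMIs: the SE of the Vil1 estimate was 0.29 there and 0.12 over all epithelial cells.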
